A study of Mus musculus with 6 samples.

Results

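The replication-dependent histone genes were followed in whole mouse embryos homozygous for a mutation in Zic2, which encodes a zinc finger transcription factor of the neural plate and mesoderm, and in their wildtype littermates. Their probes were taken from the array annotation as those whose gene symbol begins with Hist1h, Hist2h, Hist3h or Hist4h or is an updated symbol of such a gene of the form H1f, H2ac, H2bc, H3c or H4c and a number. The rule found 85 probes for 56 genes among 45281 probes, of which 34885 were annotated to a single gene and together named 19057 genes. Of the 56 genes, 47 lie on mouse chromosome 13, in the cluster from which the Hist1 names derive, and 9 lie on chromosome 3. The annotation already used the updated symbols, so the older names were read from RefSeq synonyms.

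The Zic2 iso/iso embryos were homozygous for iso, a chemically induced stop-gain allele in the fifth zinc finger of Zic2, and the wildtype embryos carried 2 normal copies. Both groups came from intercrosses of iso/+ animals on the C3H/HeH strain, were collected between E8.0 and E8.5 (days of gestation), and included both sexes. The allele was induced on C57BL/6J and then backcrossed. Its message is still made, and the study describes residual activity of the truncated protein in reporter assays, so that iso is not a proven null allele. RNA was extracted from 3 pools of Zic2 iso/iso embryos and 3 pools of wildtype embryos, each of 8 stage-matched whole embryos, and each pool was read on 1 Illumina Mouse WG6 v2 array. The pools are mixtures of embryos, so the spread between pools is smaller than that between single embryos.

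Replication-dependent histones package newly copied DNA: H2A, H2B, H3 and H4 form the nucleosome core and H1 binds the linker between nucleosomes. Their genes lack introns, lie in clusters and are transcribed in S phase, and their messages end in a conserved stem-loop, bound by the protein SLBP, in place of the poly(A) tail of other messages. The genes of one class have nearly the same coding sequence, so that a probe named for one gene may read several of them. The deposited probe annotation used here gives no probe sequences, and every value below belongs to a probe, not with certainty to 1 gene. Labelling that starts from a poly(A) tail reads such messages poorly, and the priming used here is not given in the sources used here.

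A probe was taken as above background when its mean log2 intensity exceeded 7.47, the 95th percentile of 1608 probes for olfactory and vomeronasal receptors, hair keratin-associated proteins and beta-defensins. By this measure 68 of the 85 histone probes, for 50 genes, were above background, among 18452 such probes on the array. The other 17 lay between 7.10 and 7.35, with differences between the genotypes from -0.21 to 0.19. Among them were the only probes of H1f6, H2ac1 and H2bc1, the H1, H2A and H2B genes known from the testis. Levels are log2 intensities after quantile normalisation, differences are Zic2 iso/iso minus wildtype on that scale, and adjusted p-values (limma, Benjamini-Hochberg) were computed over the whole array.

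The whole comparison was sparse in calls: 20 of 45281 probes passed an adjusted p of 0.05, which is 0.0442%, and none of the 85 histone probes was among them. The lowest adjusted p of a histone probe was 0.16, and it belonged to H3c7. At an unadjusted p of 0.05, 16 of the 68 histone probes above background were higher in Zic2 iso/iso embryos and 0 were lower. Among all 18452 probes above background, 972 (5.27%) were higher at that threshold and 994 were lower.

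The first question was whether the difference drawn for Hist1h3f (H3c7), an H3 gene of the chromosome 13 cluster, was seen by each of its probes and by the rest of its family. H3c7 was singled out by the study on these same 6 pools, so its difference is given as a description. The annotation names 4 probes for it. Probe ILMN_2925169 read 9.18, 9.08 and 8.58 in the Zic2 iso/iso pools, against 8.49, 7.80 and 7.79 in the wildtype pools. Every Zic2 iso/iso pool was above every wildtype pool, but the lowest mutant pool and the highest wildtype pool were close together. The difference was 0.92 (SE 0.18, 95% interval 0.53 to 1.31), a 1.89-fold higher mean, with an adjusted p of 0.16. No other probe of the 45281 had a larger positive difference. The corresponding raw intensities were 727, 538 and 342 in Zic2 iso/iso pools and 340, 224 and 209 in wildtype pools.

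The brightest H3c7 probe, ILMN_2748164, gave a smaller difference. It read 11.44, 11.33 and 11.44 in Zic2 iso/iso pools and 11.33, 10.94 and 11.18 in wildtype pools, a difference of 0.25 (SE 0.09, adjusted p = 0.74). The pools of the 2 genotypes overlapped at this probe, in that wildtype pool 1 reached the level of Zic2 iso/iso pool 2. The remaining H3c7 probes, ILMN_1213473 and ILMN_2725359, were below background and differed by -0.04 and 0.05. Averaged by gene over its 4 probes, H3c7 differed by 0.30 (adjusted p = 0.60).

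**Figure D1:**
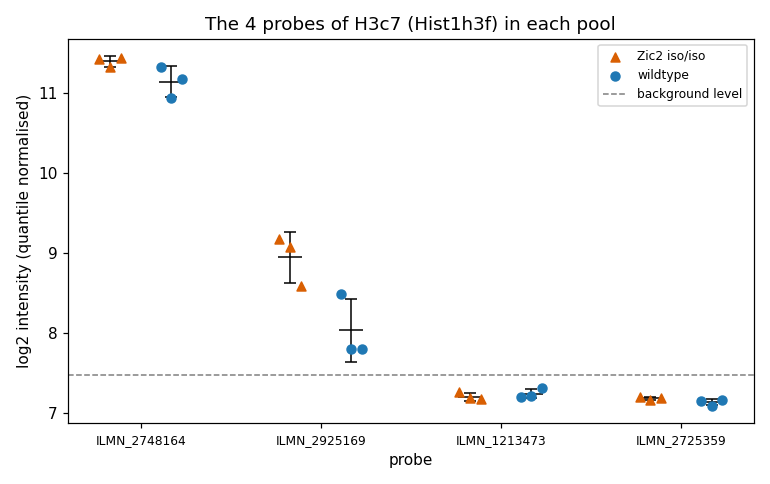
Log2 intensity (vertical axis, quantile normalised) of the 4 probes of H3c7 in the 3 Zic2 iso/iso pools (triangles) and the 3 wildtype pools (circles), with the mean and SD of each group and the background level dashed. ILMN_2925169 shows the largest gap, 8.95 against 8.03, while ILMN_2748164 averages 11.40 in Zic2 iso/iso and 11.15 in wildtype pools and the other probes lie below 7.47.

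Most H2B, H3 and H4 probes had a small difference in the same direction, while the medians of the H1 and H2A probes were near 0; the difference between classes was not tested. Over the 68 histone probes above background the difference was above 0 in 56 (82.4%), against 50.2% of all probes above background. The Zic2 iso/iso pools were all above the wildtype pools at 12 of the 68 probes (17.6%) and all below at 0, against 5.45% and 6.39% of all probes above background. The exact permutation test of such a probe, 3 pools against 3 (two-sided), gives p = 0.1, the smallest value this design allows. The median difference of the 43 H2B, H3 and H4 probes was 0.14, a 1.11-fold higher level, and 40 of them were above 0. The median of all probes above background was 0.00, with quartiles of -0.07 and 0.07. Without ILMN_2925169 the remaining 42 probes kept a median of 0.14 and 39 were above 0. Since these probes share sequence and the same 6 arrays, they are not independent measurements, and their count carries no p-value.

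H4, of which every gene encodes the same protein, had the highest class median. Its 17 probes above background had a median difference of 0.15, 16 were above 0, and 8 were higher at an unadjusted p of 0.05. The largest was ILMN_1243654 of H4c12, which read 8.82, 8.99 and 9.23 in Zic2 iso/iso pools and 8.83, 8.62 and 8.60 in wildtype pools, a difference of 0.33 (SE 0.10, adjusted p = 0.63). Its lowest mutant pool lay just under wildtype pool 1, so the genotypes overlapped. The second probe of H4c12, ILMN_2525570, read 8.52, 8.49 and 8.70 against 8.43, 8.33 and 8.31 in wildtype pools, with no overlap and a difference of 0.21. Both probes of H4c18 were without overlap too, with differences of 0.24 (SE 0.08, adjusted p = 0.70) and 0.22 (SE 0.08, adjusted p = 0.73).

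Of the 3 H4c6 probes, ILMN_1230265 read 8.53, 8.54 and 8.59 in Zic2 iso/iso pools and 8.48, 8.18 and 8.28 in wildtype pools, without overlap (difference 0.24). Its other probes differed by 0.21 and 0.01. The remaining H4 probes without overlap were those of H4c2 (ILMN_1213257, difference 0.19) and H4c3 (0.13), both close to background. The brightest H4 probe, that of H4c1, had an overlapping difference of 0.09. The single H4 probe below 0 was that of H4c14, the H4 gene of the chromosome 3 cluster. It read 7.79, 7.72 and 8.01 in Zic2 iso/iso pools and 8.04, 7.88 and 7.92 in wildtype pools, a difference of -0.11 (adjusted p = 0.94). All 16 H4 probes on chromosome 13 were above 0, with a median of 0.17.

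The H3 class followed H4. Its 13 probes above background had a median of 0.13, 12 were above 0, 5 were higher at an unadjusted p of 0.05 and 4 had pools that did not overlap. Without the H3c7 probes the median of the remaining 11 was 0.10 and 10 were above 0. H3c4 read 11.82, 11.76 and 11.70 in Zic2 iso/iso pools and 11.55, 11.30 and 11.60 in wildtype pools. All its mutant pools were above the wildtype pools, and the difference was 0.27 (SE 0.08, adjusted p = 0.61). H3c6 differed by 0.13, also without overlap.

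H3c10 showed how far probes of one gene could diverge. ILMN_2698519 read 10.02, 10.31 and 9.97 in Zic2 iso/iso pools and 9.91, 9.55 and 9.80 in wildtype pools, a difference of 0.34 without overlap (SE 0.10, adjusted p = 0.64). The brightest H3 probe, ILMN_2592253 of the same gene, differed by 0.10, and the third, ILMN_2860616, by -0.10, the only negative difference of the class. Each of these genes encodes the same S-phase form of H3 or one that is nearly the same. The 21 genes with 2 or more probes gave the measure of this scatter. The highest and lowest difference among probes above background lay 0.67 apart for H3c7, 0.45 for H3c10, 0.23 for H4c6 and 0.22 for H2bc12, and at most 0.16 apart for any other such gene.

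H2B, the partner of H2A in the core dimer, had 13 probes above background with a median of 0.13, of which 12 were above 0 and 2 were higher at an unadjusted p of 0.05. The median was 0.069, with 10 of 13 above 0, without Zic2 iso/iso pool 3, and 0.087 without wildtype pool 2. The largest difference was that of H2bc21 on chromosome 3, which read 10.96, 10.87 and 10.83 in Zic2 iso/iso pools and 10.86, 10.55 and 10.52 in wildtype pools (0.24, SE 0.09, adjusted p = 0.74). Only wildtype pool 1 reached into the range of the mutant pools. H2bc11 was the 1 H2B probe without overlap, at 10.70, 10.67 and 10.83 in Zic2 iso/iso pools and 10.61, 10.48 and 10.55 in wildtype pools, a difference of 0.19 (SE 0.07, adjusted p = 0.75). The brightest H2B probe, of H2bc7, differed by 0.11. The 1 negative value was a probe of H2bc12 (-0.08), whose other probe differed by 0.14.

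H2A, the partner of H2B, had a median of 0.02 over its 20 probes above background, of which 13 were above 0. Of these probes 1 was higher at an unadjusted p of 0.05 and 1 was without overlap. The largest difference was that of H2ac8, which read 9.18, 9.15 and 8.56 in Zic2 iso/iso pools and 8.81, 8.23 and 8.41 in wildtype pools (0.48, SE 0.16, adjusted p = 0.71). As at ILMN_2925169 of H3c7, Zic2 iso/iso pools 1 and 2 were high, but here pool 3 lay below wildtype pool 1. The probe without overlap was ILMN_1246108 of H2ac12, at 14.76, 14.73 and 14.60 in Zic2 iso/iso pools and 14.58, 14.59 and 14.53 in wildtype pools, a difference of 0.13 with a 95% interval of -0.02 to 0.28. The second H2ac12 probe differed by -0.03. The lowest H2A difference, -0.11, was that of H2ac11.

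Most H2A probes were read near the top of the scale. For 12 of the 20, from 8 genes, the mean log2 level was above 14, as it was for 258 probes of the whole array. The raw intensities of these 12 ran from 18183 to 39217 in Zic2 iso/iso pools and from 16696 to 34897 in wildtype pools, where the highest intensity of any probe on an array was 34897 to 43345. In Zic2 iso/iso pool 3 and in wildtype pool 1 the brightest probe of the array was an H2A probe. The median difference of the 12 was 0.01, and that of the other 8 H2A probes was 0.05. H2ac13, the brightest, differed by 0.02. Whether a difference of the size seen in H2B, H3 and H4 could have been read at this brightness was not tested.

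H1, the linker histone, stayed near 0. Its 5 probes above background had differences from -0.02 to 0.05 and a median of 0.01, no probe was higher or lower at an unadjusted p of 0.05, and none was without overlap. Both probes of H1f2, the brightest H1 gene here, differed by -0.01 and -0.02, with 95% intervals of -0.21 to 0.20 and -0.26 to 0.21. H1f5, the highest, differed by 0.05 (95% interval -0.13 to 0.24). Those intervals include the median of H2B, H3 and H4, so a difference of that size in H1 was not resolved by 3 pools a genotype.

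**Figure D2:**
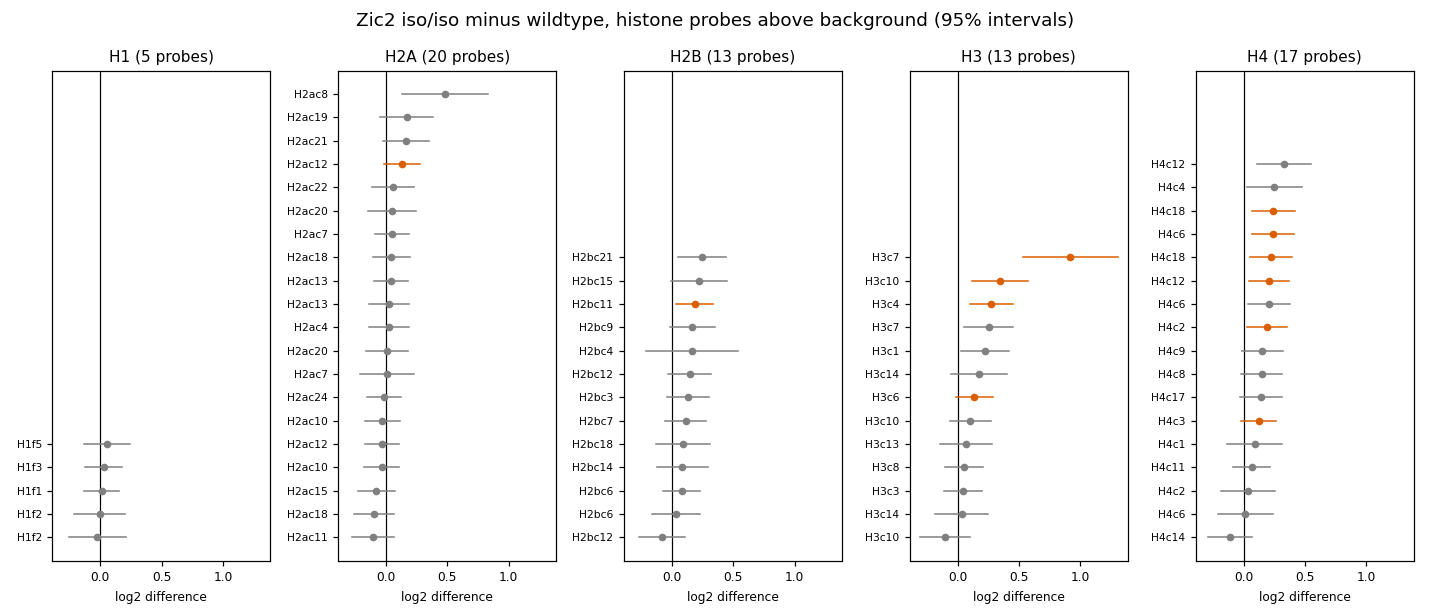
Log2 difference (horizontal axis, Zic2 iso/iso minus wildtype) of each of the 68 histone probes above background, by class, with 95% intervals from limma, 1 row for each probe under its gene symbol. Orange marks the 12 probes at which every Zic2 iso/iso pool was above every wildtype pool. Points of H2B, H3 and H4 lie mostly right of 0, with 40 of 43 above it, and those of H1 and H2A lie on both sides.

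By brightness, the higher values were found in the middle of the scale. The 8 histone probes between background and a mean log2 level of 8 had a median difference of 0.03, with 6 above 0. Histone probes of any class with a mean log2 level of 8 to 9 had a median difference of 0.16 (n = 20), those of 9 to 10 a median of 0.14 (n = 11) and those of 10 to 13 a median of 0.12 (n = 16). The single probe between 13 and 14, that of H2ac11, was at -0.11. The 12 histone probes over 14 were all H2A probes, with a median of 0.01. No H2B, H3 or H4 probe had a mean level above 12.14, so class and brightness cannot be told apart at the bright end. All probes of the array in the ranges from 8 to 13 had a median of 0.00 each. By cluster, the median was 0.10 over the 56 probes on chromosome 13 and 0.06 over the 12 on chromosome 3. The clusters differ in their mix of classes, since 6 of those 12 but 14 of the 56 were H2A probes. Within classes the order varied. On chromosomes 13 and 3 the medians were 0.01 and 0.05 for H2A and 0.13 and 0.17 for H2B. They were 0.18 and 0.07 for H3, and 0.17 and -0.11 for H4, with 1 H4 probe on chromosome 3.

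Pool by pool, the difference between the genotypes in these classes lay mostly in wildtype pools 2 and 3. Expressed as the median deviation of the 43 H2B, H3 and H4 probes from their mean over the 6 pools, the Zic2 iso/iso pools were at 0.06, 0.03 and 0.09. The wildtype pools were at 0.02, -0.15 and -0.10. Over these 43 probes together, wildtype pool 1 therefore lay close below the mutant pools. It was the highest of the wildtype pools at 34 of these 43 probes, and at 15 of the 17 H4 probes, whereas it was so at 34.6% of all probes above background. In H4 the Zic2 iso/iso pools were at 0.06, 0.05 and 0.13, against 0.02, -0.13 and -0.16 in the wildtype pools. In H2B the Zic2 iso/iso pools were at 0.026, 0.019 and 0.14, against 0.026, -0.14 and -0.096 in the wildtype pools. Wildtype pool 1 thus lay level with Zic2 iso/iso pools 1 and 2 in H2B, not below them. In H2A the corresponding values were -0.02, 0.04 and -0.01 in Zic2 iso/iso pools and -0.004, -0.04 and -0.01 in wildtype pools. Leaving out wildtype pool 1 raised the H4 median to 0.23 and brought ILMN_2925169 of H3c7 to an adjusted p of 0.014. Leaving out any other pool kept that adjusted p between 0.070 and 0.73. The decidual markers Prl8a2 and Cryab are of maternal tissue. Their median deviation was -0.25, 0.06 and -0.25 in the Zic2 iso/iso pools and -0.26, 0.25 and 0.45 in the wildtype pools. Prl8a2 itself read 7.96, 8.64 and 8.39 in Zic2 iso/iso pools and 7.92, 9.20 and 9.27 in wildtype pools, so that wildtype pool 1 stood with the mutant pools and wildtype pools 2 and 3 above them. Cryab did not split the pools so. It read 8.56, 8.51 and 8.14 in Zic2 iso/iso pools and 8.59, 8.34 and 8.65 in wildtype pools, where pool 2 was the lowest. The part of carried-over tissue in the histone values was not tested.

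**Figure D3:**
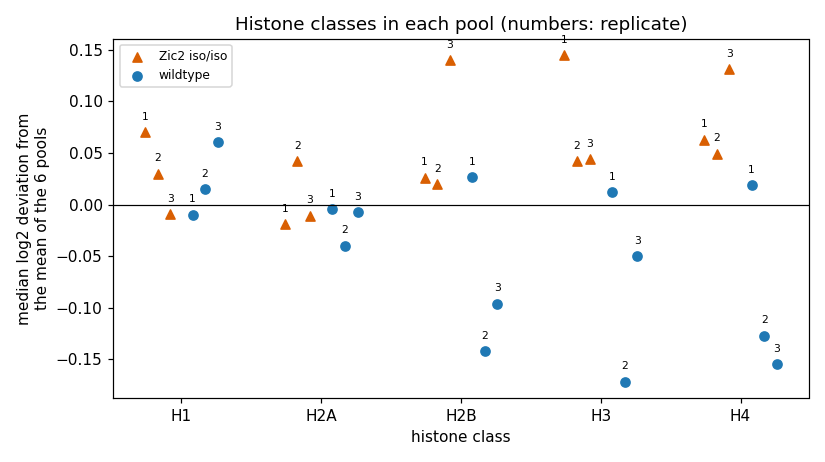
Median log2 deviation of each histone class from the mean of the 6 pools (vertical axis), for the Zic2 iso/iso pools (triangles) and the wildtype pools (circles), numbered by replicate. In H2B, H3 and H4 wildtype pools 2 and 3 lie lowest while wildtype pool 1 lies between 0.01 and 0.03, and in H1 and H2A the genotypes are mixed.

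H3c7 passed the threshold under some ways of processing and not under others. Its difference at ILMN_2925169 lay between 0.79 and 1.17 and its adjusted p between 0.0084 and 0.73 over 14 refits of the data, and it passed 0.05 in 5 of them. No other histone probe passed in any. H2B, H3 and H4 probes above the median of all probes numbered between 36 and 40 of 43 in each refit.

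Promoters of these genes show what the classes share and where they differ in sequence. RefSeq promoters (GRCm38.p6, 250 bases before to 50 after the annotated start) matched 51 of the 56 genes, with 52 promoters, and H3c7 was not among them. They were searched on both strands for CCAAT, for TATAAA and for ATTTGCAT, the octamer known from H2B promoters. Each motif was counted by itself, and matches of different motifs may share end bases. CCAAT was found in 44 of the 52 (84.6%), against 37.4% of all 32851 promoters in the table. TATAAA was found in 31 (59.6%), against 13.6%, and the octamer in 13 (25.0%), against 1.74%. All 6 H1, 16 H2A, 12 H2B and 7 H3 promoters held CCAAT, but only 3 of 11 H4 promoters did. The octamer was held by 6 of 16 H2A and 7 of 12 H2B promoters and by 0 in the other classes. Because both strands were counted, a match may belong to a neighbouring gene read from the other strand, and this was not tested. The counts of H2A and H2B promoters may therefore not be separate. A motif match is a description of the sequence, and the classes with higher values in Zic2 iso/iso embryos, H2B, H3 and H4, did not share a motif that H1 and H2A lacked.

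Shown here, 5′ to 3′ on the strand of the gene, are the promoters of the genes with the largest difference in the H3, H4, H2B and H2A classes among those matched, with matches to the motifs in capitals on either strand (CCAAT reads as ATTGG when it lies on the opposite strand). H3c10 lies at chr13:21717378-21717677 on the plus strand, H4c12 at chr13:21750504-21750803 on the minus strand, H2bc15 at chr13:21753826-21754125 on the plus strand and H2ac8 at chr13:23571171-23571470 on the minus strand.
H3c10: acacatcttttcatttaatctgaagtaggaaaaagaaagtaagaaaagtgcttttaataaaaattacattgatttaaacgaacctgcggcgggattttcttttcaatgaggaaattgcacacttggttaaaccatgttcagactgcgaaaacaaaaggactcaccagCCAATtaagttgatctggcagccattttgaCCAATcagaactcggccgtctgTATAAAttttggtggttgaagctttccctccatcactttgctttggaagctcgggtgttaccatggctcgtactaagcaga
H4c12: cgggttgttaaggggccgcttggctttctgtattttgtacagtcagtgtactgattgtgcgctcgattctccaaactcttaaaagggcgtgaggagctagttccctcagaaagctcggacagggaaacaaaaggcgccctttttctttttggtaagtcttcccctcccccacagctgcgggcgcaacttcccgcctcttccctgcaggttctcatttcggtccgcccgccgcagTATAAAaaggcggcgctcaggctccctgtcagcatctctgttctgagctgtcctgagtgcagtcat
H2bc15: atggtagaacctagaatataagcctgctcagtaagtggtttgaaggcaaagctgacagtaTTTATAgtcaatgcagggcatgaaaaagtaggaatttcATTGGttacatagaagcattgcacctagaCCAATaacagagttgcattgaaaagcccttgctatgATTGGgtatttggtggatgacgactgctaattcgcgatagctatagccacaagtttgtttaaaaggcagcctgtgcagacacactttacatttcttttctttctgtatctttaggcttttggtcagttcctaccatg
H2ac8: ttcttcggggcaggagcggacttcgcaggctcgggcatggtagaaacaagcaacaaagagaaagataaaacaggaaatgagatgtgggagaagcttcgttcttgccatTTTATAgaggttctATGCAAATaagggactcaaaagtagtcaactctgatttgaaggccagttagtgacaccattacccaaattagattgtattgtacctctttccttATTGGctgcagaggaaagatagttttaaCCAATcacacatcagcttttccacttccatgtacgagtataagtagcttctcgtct
In H3c10 TATAAA begins 31 bases before the start, with 2 CCAAT copies upstream of it at 83 and 53 bases. In H4c12 TATAAA stands alone, at 16 bases before the annotated start. H2bc15, whose probe differed by 0.22 (adjusted p = 0.85), has 3 CCAAT copies. The H2ac8 sequence holds the octamer and TATAAA on the opposite strand only, 128 and 142 bases before the annotated start. Its CCAAT copies lie 6 bases before the start on the same strand and 34 bases before it on the opposite strand. Whether the matches on the opposite strand belong to H2ac8 or to a neighbouring gene was not tested.

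Lists of genes that make or handle histones had medians near 0. The replacement variants, most of which are also made outside S phase from polyadenylated messages, had 10 of 13 measured genes above background. Their median difference was -0.02, with 4 above 0. H2az2, a form of H2A.Z, read 11.84, 11.79 and 11.72 in Zic2 iso/iso pools and 11.56, 11.71 and 11.60 in wildtype pools, without overlap (0.17, SE 0.07, adjusted p = 0.80), and Macroh2a2 was the lowest at -0.15. Genes of histone transcription and 3′ processing had 15 of 19 above background, with a median of 0.01. The highest of them was Upf1, the helicase that takes part in histone message decay (0.23, adjusted p = 0.75), and the lowest Cpsf3, the nuclease that cuts the histone 3′ end (-0.13, without overlap). Slbp, Npat, Casp8ap2 and Tut4 were below background, so the level of the stem-loop binding protein's message could not be compared here.

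Histone chaperones had 16 of 17 genes above background and a median of 0.01, with Nap1l4 highest at 0.13 and Nasp, a carrier of H3 and H4, lowest at -0.14. The S-phase genes, which act in cells that copy their DNA, had 23 of 25 above background and a median of 0.01, with 14 above 0. Mcm7, part of the replicative helicase, read 11.20, 11.57 and 11.37 in Zic2 iso/iso pools and 11.26, 11.09 and 10.89 in wildtype pools, the highest of the list (0.30, SE 0.10, adjusted p = 0.72). Its pools overlapped. Rrm1, a subunit of ribonucleotide reductase, was 0.11 higher without overlap, and Cdk2, the S-phase kinase, had the lowest value at -0.14, with all mutant pools below the wildtype pools. No gene of the 4 lists passed the threshold, and wildtype pool 1 was the highest wildtype pool at 7 of the 23 S-phase genes. In whole embryos a lower share of cells in a given state and less RNA per cell cannot be told apart.

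**Figure D4:**
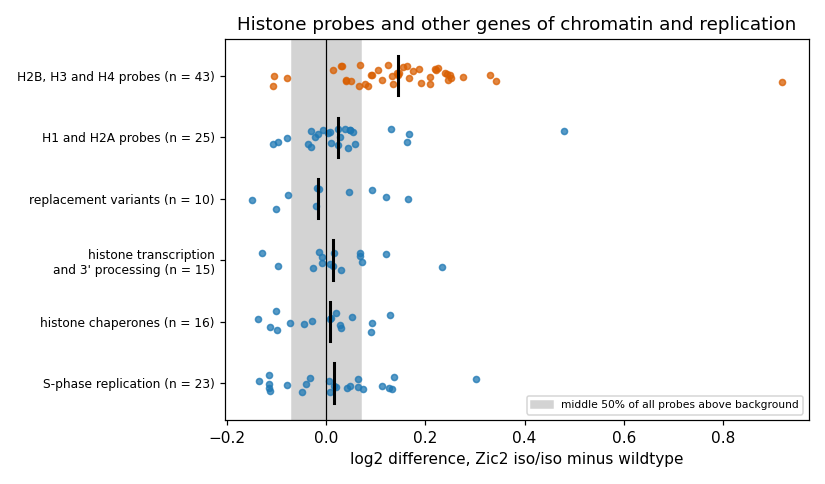
Log2 difference (horizontal axis, Zic2 iso/iso minus wildtype) of the H2B, H3 and H4 probes, of the H1 and H2A probes, and of the genes above background in 4 other lists, 1 point for each probe or gene, with the median as a black bar and the middle 50% of all probes above background in grey. The median of H2B, H3 and H4 is 0.14, outside the grey band that ends at 0.07, and the medians of the other lists lie between -0.02 and 0.01.

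A few related genes carry updated symbols of another form or have no older name of that kind, and were kept out of the counts: 9 probes for 7 genes, none of which passed the threshold. H2aw, H2bu2 and H2bu1-ps, older names of which begin with Hist3h, were below background and differed by -0.04, 0.06 and -0.07. H4f16, formerly Hist4h4, had 2 probes above background, with differences of 0.12 and -0.02. The 2 probes of the replacement linker histone H1f10 differed by -0.08 and 0.05, and the germline linker histones H1f7 and H1f8 were below background.

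The cell types of the embryo were checked by marker genes, since the pools could differ in stage or in carried-over tissue. Neural plate markers Sox2 and Otx2 differed by 0.07 and 0.06, and Sox1 was below background. The heart markers Myl7 and Actc1 differed by -0.53 and -0.66, and their pools overlapped. Their median deviation was -0.01, 0.09 and -0.97 in the Zic2 iso/iso pools and 0.21, 0.22 and 0.47 in the wildtype pools. The paraxial mesoderm markers Meox1, Tcf15 and Tbx6 differed by -0.28, -0.52 and -0.13, with Tcf15 below all wildtype pools (adjusted p = 0.27). The embryonic globins Hbb-bh1 and Hba-x scattered most: the median deviation of the blood markers was 1.27, -0.60 and -1.82 in the Zic2 iso/iso pools and 0.11, 0.39 and 0.65 in the wildtype pools. The yolk sac markers Afp, Ttr and Apoa1 differed by 0.30, 0.15 and 0.03. Of carried-over tissue, the trophoblast marker Tpbpa was below background. Prl2c2, the other trophoblast marker, differed by 0.04. It read 11.12, 10.90 and 11.34 in Zic2 iso/iso pools and 11.47, 10.86 and 10.92 in wildtype pools, where pool 1 was the highest. The decidual markers Prl8a2 and Cryab, given by pool above, differed by -0.46 and -0.12. None passed the threshold, and the part of these differences in the histone values was not tested.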

How the data were processed

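Whole-embryo RNA was hybridised to Illumina Mouse WG6 v2 arrays, 1 for each of 6 pools of 8 embryos, and groups and replicate numbers were taken from the sample labels. The authors deposited raw intensities on a linear scale. Their lowest values and differing medians show that background had been left in and arrays not yet scaled to each other, although the methods describe a VSN step, so quantile normalisation was added here. Precision is limited by the number of arrays.

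Intensities were taken to log2 and quantile normalised, and genotypes were compared for all 45281 probes with limma 3.58.1 in R 4.3.3 (lmFit and eBayes, Benjamini-Hochberg adjustment, threshold 0.05, no covariates). Tables were summarised with Python 3.11.15, pandas 2.3.3 and scipy 1.17.1. The code was tested on simulated data. Exact permutation tests of single probes were two-sided. Probes were described singly, and genes of the other lists, markers included, by their brightest probe. Probes with several gene symbols or none were not named.

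Histone probes named in the text were all those of H3c7, in each class the brightest, the highest and the lowest difference, and every probe above background whose pools did not overlap. Several others are given as the second probe of such a gene or, for H2bc15, with its promoter. The histone genes and all other lists were chosen with earlier results of these data known. Among the genes of the lists, H1f0, Pou2f1, Ssrp1, Tnnt2 and Prl3d1 had no named probe. There were 16 alternatives, of which 15 were planned and 1, a variance stabilising normalisation rewritten for this purpose and fitted on 90% of probes, was chosen after seeing the data.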

Additional observations from a re-analysis of the deposited data

How the results depend on the processing

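The number of histone probes past an adjusted p of 0.05, 0 in the report, was 1 with normexp background correction, an intensity trend in the variance prior, the replicate block and the rewritten variance stabilising normalisation, and 0 to 1 when each pool was left out in turn. That 1 probe was ILMN_2925169 of H3c7, with a difference and adjusted p of 1.17 and 0.029 under normexp, 0.92 and 0.0084 with the trend, 0.92 and 0.031 with the replicate block, 1.16 and 0.019 under the rewritten normalisation and 1.16 and 0.014 without wildtype replicate 1. It did not pass with a robust prior (0.65), without normalisation (0.69), with median centring (0.58) or without wildtype replicate 2 (0.73). Left out singly, the pools gave differences of 0.79 to 1.16.

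Calls over all probes numbered 4 without normalisation between arrays, 11 with median centring, 31 with the trend, 34 at a threshold of 0.10 and 13 with probes averaged by gene, against 20 in the report, and 14 to 29 when each pool was left out. Without normalisation the median of all probes above background moved to 0.08, and the class medians became 0.083 for H1, 0.12 for H2A, 0.22 for H2B, 0.22 for H3 and 0.25 for H4. With median centring that of H2A was 0.074, where all probes above background stood at 0.03. Leave-one-out medians ran from 0.0089 to 0.043 for H1, -0.0083 to 0.037 for H2A, 0.069 to 0.17 for H2B, 0.090 to 0.16 for H3 and 0.14 to 0.23 for H4. Among the probes named, those of H1f2, H1f5, H2ac13, H2bc12, H4c1 and the H3c7 probe ILMN_1213473 changed sign in at least 1 refit, and all of these were within 0.10 of 0 in the report.

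Over all probes, same-numbered pools of the 2 genotypes did not deviate together (correlations of -0.08, -0.01 and -0.07). Whether such pools shared a litter or handling was not tested. A fit with the replicate number as a block gave 17 calls, 14 of them lower in Zic2 iso/iso embryos. The causes of these movements were not tested. Dim probes lie close to background. Whether the brightest H2A probes were limited by the top of the scale was not tested.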
